A study of Mus musculus with 27 samples.

Results

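The uterus of C3H mice was compared with that of B6 mice in the absence of ovarian hormone and without added estradiol. The comparison used 6 of the 27 arrays of the study: the 3 arrays titled C3H saline and the 3 titled B6 saline, grouped by title. The spread between arrays was estimated from all 27 arrays in one fit. The study measured the uterine transcriptome of B6 mice, C3H mice and their F1 hybrid, in order to see how genetic background shapes the response to estrogen. Each strain was sampled after vehicle and at 2 h and 24 h after 17β-estradiol (E2), in 9 groups of 3 arrays.

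All animals were 8-week-old females that had been ovariectomised and rested for 1 to 2 weeks, so the controls lacked their ovaries too. B6 is the inbred strain C57BL/6 and C3H is labelled C3H/HeJ. The vehicle was 0.1 ml of saline with 0.25% ethanol, and the E2 groups received 40.0 µg/kg in the same vehicle. The labels give 3 animals per treatment group but tie no array to an animal, and they give no collection time for the vehicle arrays. P-values therefore measure the spread between arrays, which may be partly technical. Levels are given as log2 of the processed fluorescence of a 60-base probe minus the 75th percentile of its own array, so a level of 0 lies at that percentile. A difference of 1 on this log2 scale is 2-fold, and every difference is C3H minus B6. Because brightness depends on the probe, a level is compared only between arrays for the same gene.

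After ovariectomy the uterus regresses, because estrogen acting through its nuclear receptor in epithelium and stroma drives growth, secretion and the recruitment of leukocytes. Tissue kallikreins are secreted serine proteases encoded by a large tandem gene cluster in the mouse, and several are abundant in salivary gland and regulated by steroid hormones. B6 and C3H carry different haplotypes of the major histocompatibility complex, and their natural killer (NK) gene clusters also differ. C3H/HeJ is known for a defective Toll-like receptor 4 protein.

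The kallikrein probes are shown first because many of the largest differences lay in this family, whose members are close in sequence. The 60-base probes of Klk1b24 (mm7 chr7:40366158-40366217, plus strand), Klk1b27 (chr7:40230425-40230484, plus strand) and Klk1b11 (chr7:40173583-40173642, plus strand) share an aligned stretch of 53 bases, in which capitals mark the 10 positions where any of the 3 differ.
Klk1b24: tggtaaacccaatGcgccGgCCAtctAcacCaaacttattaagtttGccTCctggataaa
Klk1b27: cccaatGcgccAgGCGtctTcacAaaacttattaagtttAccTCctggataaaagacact
Klk1b11: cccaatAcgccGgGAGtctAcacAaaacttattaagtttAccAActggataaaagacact
Klk1b24 and Klk1b27 were identical at 47 of the 53 positions (88.7%), as were Klk1b27 and Klk1b11, and Klk1b24 and Klk1b11 matched at 45 (84.9%). Despite this likeness the 3 probes did not read the same difference between strains: 8.15 for Klk1b24, 5.83 for Klk1b27 and 0.15 for Klk1b11. Signal from one kallikrein on the probe of another was not tested.

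The probes of Klk1b4 (mm7 chr7:40384768-40384923, plus strand) and Klk1b8 (chr7:40128083-40128142, plus strand) overlap in another stretch of 35 bases, and capitals mark the 3 positions that differ.
Klk1b4: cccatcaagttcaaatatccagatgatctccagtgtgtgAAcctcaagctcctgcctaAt
Klk1b8: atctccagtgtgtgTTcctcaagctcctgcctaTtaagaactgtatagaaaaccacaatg
These stretches matched at 32 of 35 bases (91.4%), and the differences between strains were 3.45 and 4.90.

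A further pair of probes checks the strain labels and opens the account of the NK receptor genes lower in C3H. H2-Ea (mm7 chr17:32421735-32421794, minus strand) encodes the alpha chain of the class II molecule E, which the B6 haplotype does not express. Klra8 (mm7 chr6:130148755-130151686, minus strand) encodes Ly49H, an activating receptor of NK cells. No letter is capitalised in these 2 probes, since they are shown for their identity only.
H2-Ea: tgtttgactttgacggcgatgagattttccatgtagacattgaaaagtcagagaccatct
Klra8: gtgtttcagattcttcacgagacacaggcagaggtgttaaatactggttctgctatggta

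Among the 6 arrays, the processed intensity at the 75th percentile ran from 1213 to 1377, and 75.7% to 79.4% of probes exceeded background. B6 vehicle replicate 1 stood apart from the other arrays. It had 435 genes more than 1 log2 unit from its group mean, against 82 to 142 on the other 5 arrays, and it correlated with the other B6 arrays at 0.9879 and 0.9886 where those 2 correlated at 0.9965. Transcripts of leukocytes, of interferon-inducible genes and of liver were higher on it, so results are given with and without it. The 3 B6 vehicle arrays lay on one slide and the 3 C3H vehicle arrays on another, so within these 6 arrays slide and strain cannot be told apart. Among the E2 arrays, the first C3H replicates at 2 h and 24 h had 296 and 482 such genes.

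H2-Ea met its label. Its levels were -9.03, -9.09 and -9.08 in B6 and -5.30, -4.92 and -4.82 in C3H. The probe was not well above background on any B6 array and was so on all 3 C3H arrays, which made it at least 4.09-fold higher in C3H. Here and below, "at least" sets the brighter group against the higher of the dim probe's own value and the lowest signal that was well above background on each array. Nnt, the mitochondrial nicotinamide nucleotide transhydrogenase that some B6 lines lack in part, stood at 0.74, 0.74 and 0.70 in B6 and 1.71, 1.77 and 1.79 in C3H. That is a difference of 1.03 (SE 0.07, adjusted p = 5.40e-10), with no overlap, and without B6 replicate 1 it was 1.04. Over the 4 Nnt probes the difference ranged from 0.07 to 1.03, all on the same side.

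Of 21861 genes tested, 5339 (24.4%) differed between the strains at an adjusted p under 0.05 by limma with Benjamini-Hochberg adjustment. Of these, 2953 (13.5%) were higher in C3H and 2386 (10.9%) were lower. Counts of calls in the gene lists below stand against these shares. At 2-fold or more, 643 (2.94%) were higher and 863 (3.95%) lower. Most differences were small: the median absolute difference of called genes was 0.59, and the median signed difference over all genes was 0.05. Leaving out B6 replicate 1, the test called 5212 genes (23.8%), with 2918 higher and 2294 lower, and 4383 of the 5339 were called on the same side both ways. The arrays of the strains did not overlap for 5101 of the called genes (23.3% of those tested), and non-overlap without regard to the call held for 9113 genes (41.7%). With the slide as a fixed term, which the vehicle arrays support only through the B6 E2 arrays, 880 genes were higher and 784 lower. With the 6 vehicle arrays fitted alone, 2455 genes were higher and 1811 lower. That fit repeated 67.5% of the 5339 calls on the same side, and 82.4% of the 1506 calls of 2-fold or more. The slide term repeated 24.5% and 46.8% of these calls, and another background correction (normexp) 14.3% and 21.3%.

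The tissue kallikreins held 7 of the largest named differences higher in C3H. Of 18 kallikreins tested, 9 were higher in C3H, 2 were lower and 7 were not called, and their median difference was 0.54 against 0.05 for all genes. Without B6 replicate 1, 10 were higher and 1 lower, and with the slide as a fixed term 8 were higher and 0 lower. Klk1b24 stood at -3.91, -4.59 and -3.39 in the B6 arrays and at 4.05, 4.40 and 4.12 in the C3H arrays. All C3H arrays were far above all B6 arrays. The difference was 8.15 (SE 0.53, 285-fold, adjusted p = 1.43e-10), and without B6 replicate 1 it was 8.18.

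Klk1, the founding tissue kallikrein that releases kinins from kininogen, stood at -4.06, -4.46 and -4.03 in B6 and at 2.19, 2.73 and 2.27 in C3H. The strains did not overlap, and the difference was 6.58 (SE 0.45, adjusted p = 3.98e-10). Klk1b3, a nerve growth factor subunit, stood at -4.21, -4.77 and -4.25 in B6 against 2.43, 2.88 and 2.48 in C3H. It was 128-fold higher in C3H (SE 0.38 on the log2 scale, adjusted p = 9.49e-12), again without overlap.

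Further members of the cluster on chromosome 7 behaved alike. Klk1b26 was higher by 6.82, Klk1b21 by 6.77, Klk1b27 by 5.83 and Klk1b8 by 4.90, with no overlap for any of them. Klk1 and Klk1b26 each have a second probe, which read differences of only 0.86 and 0.27, so which family members these genes' brighter probes register is uncertain. Klk1b5 differed by 0.75 and did not pass the test (adjusted p = 0.0623). Neither Klk1b11, at 0.15, nor Klk1b9, at -0.13, was called. Outside that subfamily the differences were small: Klk4, an enamel protease, was higher by 0.33, whereas Klk8 and Klk14, proteases of brain and skin, were lower by 0.40 and 0.46.

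**Figure D1:**
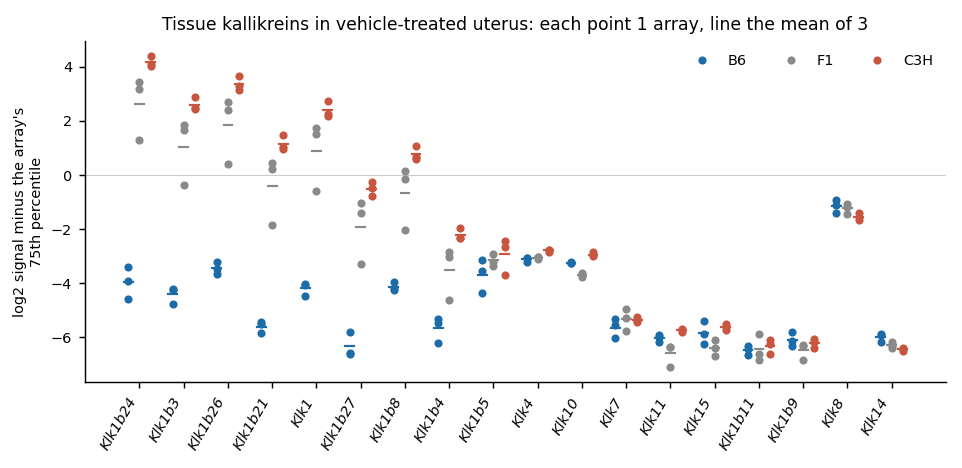
Level of the 18 tested kallikreins on the vehicle arrays of B6, the F1 hybrid and C3H; each point is 1 array, short lines are group means, and the axis is log2 processed signal minus the array's 75th percentile. Klk1b24 runs from about its lowest B6 value of -4.59 to its highest C3H value of 4.40, the F1 arrays of the 7 strongly different genes lie between the parents, and Klk1b11 and Klk1b9 show no such separation.

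The F1 hybrid, which carries 1 copy of each parental genome, lay between the parents for these genes. Klk1b24 in the F1 vehicle arrays was 1.30, 3.18 and 3.45, and Klk1 was -0.57, 1.51 and 1.73. In both genes F1 replicate 1 was the lowest of its group, below the other F1 arrays by more than 1.5 log2 units.

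After E2, the kallikrein difference between strains was much smaller. Mean Klk1b24 in B6 was -3.97 (SD 0.61, n = 3) after vehicle, 1.92 (SD 0.13) at 2 h after E2 and -1.13 (SD 0.19) at 24 h. In C3H it was 4.19 (SD 0.18), 3.40 (SD 0.27) and 1.75 (SD 0.37) at the same stages. The B6 level at 2 h thus lay above the B6 vehicle level, while the C3H level was highest on the vehicle arrays.

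The difference between strains in Klk1b24 was 1.48 at 2 h and 2.88 at 24 h. The change in that difference relative to vehicle was tested directly and passed at both times (adjusted p = 1.53e-05 and 0.000106). Klk1b3 showed the same in a stronger form. Its strain difference, 128-fold after vehicle, was 0.31 on the log2 scale at 2 h and 0.39 at 24 h, with adjusted p for the change of 2.83e-07 and 3.04e-07. For Klk1, the B6 mean moved from -4.18 after vehicle to 0.37 at 2 h and -1.90 at 24 h, and the C3H mean from 2.40 to 1.83 and 0.07. The C3H means were not ordered alike in all members: Klk1b3 stood at 2.60 after vehicle and 3.16 at 2 h, Klk1b8 at 0.77 and 1.75, and Klk1b27 at -0.50 and 0.84.

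Promoters of a strongly different and an uncalled gene are printed to show the upstream sequence of close family members whose differences diverged. Each is the RefSeq sequence of GRCm38.p6, plus strand, from 250 bases before the gene start to 50 after, for Klk1b24 (chr7:44187986-44188285) and Klk1b5 (chr7:44216224-44216523). Capitals mark 3 short motifs on either strand. One is AGAACA, which is part of the androgen and progesterone response element. Another is AGGTCA, which is part of the estrogen response element and reads as TGACCT where it lies on the other strand. The last is TTTAAA, a variant of the TATA box.
Klk1b24: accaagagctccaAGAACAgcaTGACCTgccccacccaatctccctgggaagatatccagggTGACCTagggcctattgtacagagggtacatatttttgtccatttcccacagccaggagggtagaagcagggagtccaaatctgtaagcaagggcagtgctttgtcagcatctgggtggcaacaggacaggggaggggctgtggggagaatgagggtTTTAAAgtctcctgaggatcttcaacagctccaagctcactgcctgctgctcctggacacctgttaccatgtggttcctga
Klk1b5: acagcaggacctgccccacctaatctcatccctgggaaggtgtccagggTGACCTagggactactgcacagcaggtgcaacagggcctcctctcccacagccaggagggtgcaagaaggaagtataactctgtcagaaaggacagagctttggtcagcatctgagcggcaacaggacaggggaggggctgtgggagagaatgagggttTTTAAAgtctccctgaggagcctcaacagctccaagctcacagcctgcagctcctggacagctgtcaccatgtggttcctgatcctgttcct
Both windows carry AGGTCA as well as the motif TTTAAA, whereas of the pair the Klk1b24 window alone holds AGAACA. Over the 11 promoters of Klk1 and its Klk1b relatives, searched on both strands, AGGTCA was in 9 (against 16.3% of 32851 promoters of 300 bases), TTTAAA in 10 (13.2%) and AGAACA in 2, Klk1b24 and Klk1b3 (19% of all). TATAAA was in 0 of the 11 (13.6% of all). The full palindromic estrogen response element, which overlaps AGGTCA in part, and the full palindrome of AGAACA were in 0 of the 11 and in 0.07% and 0.00913% of all promoters. Identity to the Klk1b24 promoter was 77.6% for Klk1b5, 78.3% for Klk1b11, 81.3% for Klk1b9, 83.4% for Klk1b27 and 48.1% for Klk1. For the other members it was 70.8% for Klk1b3, 74.7% for Klk1b8, 75.9% for Klk1b4, 78.5% for Klk1b21 and 83% for Klk1b26. The uncalled members lay within the range of the strongly different ones. The reference assembly is of B6 origin, and the C3H sequence was not used here.

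Among early estrogen-response genes in the hormone-deprived uterus, Hbegf stood far apart from the rest. Of 28 tested (28.6% called, against 24.4% of all genes), 7 were higher in C3H, 1 was lower and 20 were not called. Their median difference was 0.23 against 0.05 for all genes. Hbegf encodes heparin-binding EGF-like growth factor, a ligand of the EGF receptor that the mouse uterus makes at embryo attachment. It stood at -0.02, 0.26 and 0.29 in B6 and at 4.22, 4.26 and 4.16 in C3H, without overlap. The difference was 4.04 (SE 0.08, 16.5-fold, adjusted p = 4.79e-18), and 3.94 without B6 replicate 1.

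Hbegf also differed between strains after E2, but less. The B6 mean was 0.17 (SD 0.17, n = 3) after vehicle, 3.19 (SD 0.16) at 2 h and -0.30 (SD 0.04) at 24 h, while C3H stood at 4.21 (SD 0.05), 3.84 (SD 0.04) and 2.54 (SD 0.02). The difference between strains was 0.66 at 2 h and 2.85 at 24 h, and its change from vehicle passed at both times (adjusted p = 7.18e-14 and 1.84e-06). The mean of Hbegf in C3H was thus highest on the vehicle arrays. In the F1 hybrid the vehicle arrays read 3.42, 3.55 and 3.48, nearer to C3H.

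The other called early genes differed by less than 1 log2 unit. Ier2, an immediate early gene, was higher by 0.73, Greb1, a direct target and cofactor of the estrogen receptor, by 0.60, and Egr1, an immediate early transcription factor, by 0.46. Ramp3, which modifies the calcitonin-like receptor, was lower by 0.72. Fos, at -0.27, was not called. Among 21 steroid receptors and coregulators, 3 were higher and 1 lower. The estrogen receptor Esr1 differed by 0.08 (adjusted p = 0.718) and the progesterone receptor Pgr by 0.11 (adjusted p = 0.360). Called members included Foxa2, a transcription factor of uterine glands, at 0.61, Greb1, and Fkbp5, an immunophilin of steroid receptor complexes, at -0.67.

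Of 24 late estrogen-response and secretory genes, 3 were higher and 3 lower, near the shares over all genes (13.5% and 10.9%), with a median of 0.02. Single members differed by more. Sprr2f, a small proline-rich protein of cornified and estrogen-stimulated epithelium, stood at -3.08, -2.91 and -3.39 in B6 and 0.64, -0.07 and -0.43 in C3H. The strains did not overlap, and the difference was 3.18 (SE 0.33, adjusted p = 2.18e-07). Sprr2d and the protease inhibitor Spink12 were higher by 2.21 and 2.74. Clca1, a secreted goblet-cell protein, was lower: 4.23, 3.38 and 3.73 in B6 against 2.65, 1.70 and 1.89 in C3H, a difference of -1.70 (SE 0.23, adjusted p = 1.03e-05). Ltf, lactotransferrin, at -0.70, was not called (adjusted p = 0.0605).

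Enzymes that handle steroids gave 6 higher and 2 lower of 25 tested (32% called, against 24.4% of all genes). Sts, the steroid sulfatase that frees estrogens and androgens from their sulfates, stood at 2.33, 2.23 and 2.19 in B6 and 0.88, 0.91 and 0.90 in C3H. The arrays of each strain lay close together and apart from the other strain, and the difference was -1.35 (SE 0.13, adjusted p = 4.41e-08). At 24 h after E2 it was -0.09, a change from vehicle that passed the test (adjusted p = 0.000106). Hsd17b7, which reduces estrone, was higher by 0.98, a sign that turned to -0.38 with the slide as a fixed term. Also higher were Cyp11a1, which cleaves the cholesterol side chain, by 0.92 and Star, which carries cholesterol into mitochondria, by 0.91.

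Genes of the hedgehog and WNT pathways carry signals between uterine epithelium and stroma. Of 43 tested, 14 were higher in C3H and 3 lower, with a median of 0.16. In all 39.5% were called, against 24.4% of all genes (13.5% higher and 10.9% lower). Without B6 replicate 1 the counts were 10 and 4, against 13.3% and 10.5% of all genes. Sfrp1, a secreted WNT antagonist, stood at -0.79, -0.80 and -0.55 in B6 and 1.01, 1.25 and 1.29 in C3H. The strains were apart by 1.90 (SE 0.17, adjusted p = 2.82e-08), while a second probe read 0.42. Lrp6, a WNT coreceptor, was higher by 1.83, the hedgehog-binding Hhip by 1.19 and the ligand Wnt2 by 0.74. The lower members were all WNT ligands: Wnt11 at -1.15, Wnt7a at -0.68 and Wnt5b at -0.63.

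Of 44 matrix genes (29.5% called, against 24.4% of all genes), 10 were higher and 3 lower, with a median of 0.16. Mmp14, a membrane-anchored collagenase, stood at 4.91, 4.84 and 4.82 in B6 and 5.96, 5.85 and 5.90 in C3H, a difference of 1.04 (SE 0.07, adjusted p = 4.31e-10) without overlap. The protease Adamts1 was higher by 1.52 and the inhibitor Timp3 by 1.02. Tnxb, tenascin X, was lower by 1.62 and the epithelial protease Mmp7 by 1.03. Of 30 growth factor genes, 6 were higher and 1 lower, and the 23.3% called was near the share over all genes. The lower one was Igfbp6, an insulin-like growth factor binding protein, at -1.27.

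Of 28 cell division genes, 6 were higher and 3 lower with all arrays, with a median of 0.27 against 0.05 for all genes. Without B6 replicate 1 there were 13 higher and 3 lower, with a median of 0.38 against 0.05, so the count rests in part on that array. Mcm3, a subunit of the replicative helicase, stood at 1.45, 1.33 and 1.21 in B6 and 2.38, 2.42 and 2.35 in C3H, a difference of 1.05. Bub1b, a mitotic checkpoint kinase, went the other way by -2.23, at -0.91, -0.64 and -0.76 in B6 and -2.95, -2.83 and -3.20 in C3H. At 24 h after E2 these strain differences were 0.01 and -0.14.

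Most NK cell genes were lower in C3H. Of 21 tested, 17 were lower, 1 was higher and the median was -1.94, against 10.9% of all genes lower. Without B6 replicate 1, 14 were lower and 1 higher, with a median of -1.58. The mean level of the list was -1.42, -2.78 and -2.62 on the B6 arrays and -4.79, -4.55 and -4.60 on the C3H arrays, so B6 replicate 1 was the highest and the strains did not overlap. With the slide as a fixed term 10 were lower and with another background correction (normexp) 5. In whole tissue, fewer cells of a type and less RNA per cell cannot be told apart. The list also holds receptor genes that differ in number and sequence between mouse strains. The share of the difference owed to gene content or to unequal binding of the probes was not tested.

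The Klra genes encode the Ly49 receptors, which bind class I molecules and differ in number and sequence between mouse strains. Klra8 stood at 0.37, -0.09 and -0.16 in B6 and at -4.88, -5.03 and -5.31 in C3H, a difference of -5.12 (SE 0.17, adjusted p = 4.39e-15). Klra9, Klra7 and Klra16 were lower by 4.50, 4.33 and 4.25. Klra4 was well above background on the B6 arrays and on no C3H array, at least 38.9-fold lower in C3H, and Klra10 at least 33.2-fold lower. The probes of Klra4 carry older names of other family members in the files, and which Ly49 transcripts a probe reads is uncertain.

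Genes of NK cells outside that family were lower too. Gzmb, granzyme B of cytotoxic granules, stood at 0.59, -1.56 and -1.16 in B6 and at -5.14, -4.64 and -4.96 in C3H, a difference of -4.20 (SE 0.35). The related granzyme Gzmc was -4.32 lower with all arrays and -3.45 without B6 replicate 1, whose level of 1.71 exceeded the other B6 arrays at -1.29 and -0.51. Prf1, the pore-forming perforin, was lower by 1.91 and the receptor gene Klrb1c, which encodes the antigen NK1.1 carried by B6, by 2.71. The 1 member that was higher was Ncr1, the activating receptor NKp46 that defines NK cells in most mouse strains, at -2.45, -3.68 and -3.78 in B6 and -2.73, -2.68 and -2.52 in C3H. Its difference was 0.66 with overlap and 1.09 without B6 replicate 1.

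Class I antigen presentation genes were called lower more than higher. In the class I list, 10 of 20 were lower and 0 higher, with a median of -0.49. Leaving out B6 replicate 1, the counts were 9 lower and 2 higher, and the median was -0.18. H2-Q8, a class Ib gene, stood at 2.39, 0.20 and 0.31 in B6 and at -3.91, -4.66 and -4.81 in C3H, a difference of -5.43 (SE 0.38, adjusted p = 5.06e-10) and of -4.72 without B6 replicate 1. H2-Bl was lower by 4.22, H2-Q1 by 1.53, the peptide transporter Tap1 by 1.31 and the classical class I gene H2-K1 by 0.99. The light chain B2m, shared by all class I molecules, was not called at -0.12. Class II genes gave 4 lower and 0 higher of 10, and 3 lower and 1 higher without B6 replicate 1, when the median went from -0.45 to 0.01. Their mean level on B6 replicate 1 was 1.68, against 0.24 and 0.48 on the other B6 arrays and 0.09, 0.25 and 0.31 in C3H. H2-Ab1 was lower by 1.92 and by 1.49 without that array. These genes are polymorphic between the strains and close in sequence to one another, and the share of the difference owed to unequal binding of the probes was not tested.

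Interferon-inducible genes depended on 1 array. Of 33 antiviral genes, 3 were lower and 1 was higher with all arrays. Without B6 replicate 1, 2 were lower and 6 higher, and the median went from -0.31 to 0.12. The mean level of the list on B6 replicate 1 was 0.67, against -0.74 and -0.79 on the other B6 arrays and -0.29, -0.51 and -0.40 on the C3H arrays. Cxcl10, Psmb8, Ifi35 and Parp14 were among the genes that moved to the other side of 0 when it was left out.

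One gene of this class stood out whichever arrays were used. Ifi44l, an interferon-induced protein, stood at -6.48, -6.32 and -6.10 in B6 and at 0.57, 0.30 and 0.34 in C3H, a difference of 6.70 (SE 0.15, 104-fold, adjusted p = 2.10e-17). Its second probe read 6.19. The strain difference was 8.53 at 2 h and 9.01 at 24 h after E2, larger than after vehicle at both times (adjusted p of the change 3.81e-05 and 1.70e-06). The B6 mean was -6.30 after vehicle, -8.90 at 2 h and -7.85 at 24 h, and the C3H mean 0.40, -0.37 and 1.16. On the vehicle arrays a B6 level of -7.34, that of Sult6b1, was not well above background. The size of the Ifi44l difference after E2 is therefore uncertain. In the F1 hybrid the vehicle levels were -0.80, -0.70 and -0.82.

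Among 26 interferon-inducible GTPases and Ifi200 genes, 7 were lower and 2 higher, and 6 and 4 without B6 replicate 1. Ifi205, of the DNA-sensing Ifi200 cluster, was lower by 2.31 and by 1.94 without that array. It stood at 4.28, 3.15 and 3.19 in B6 and at 1.25, 1.18 and 1.25 in C3H. Irgm2, which controls immunity GTPases on membranes, was at 5.01, 2.26 and 2.33 in B6 and at 1.52, 1.62 and 1.52 in C3H, and its difference of -1.65 became -0.74 without B6 replicate 1. Gbp2b, a guanylate-binding protein, stood at -2.21, -8.22 and -8.53 in B6 and at 0.35, 0.58 and 0.45 in C3H, and it was above background on only part of the B6 arrays. Trim12a, of a restriction factor cluster, showed the opposite pattern to Ifi44l, at 3.36, 2.55 and 2.53 in B6 and -3.27, -5.02 and -6.02 in C3H, a difference of -7.58 (SE 0.42, adjusted p = 1.24e-11).

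Innate sensors gave 6 lower and 3 higher of 22. Tlr4, whose protein is defective in C3H/HeJ, differed by 0.14 (adjusted p = 0.272). Tlr1, which pairs with Tlr2 to bind lipoproteins, was lower by 2.39, and its relative Tlr6 was higher by 1.21. Naip5, a sensor of flagellin, was lower by 1.43. Complement genes gave 3 in each direction of 23 (26.1% called, near the 24.4% over all genes). C4a was higher by 2.88 (-0.82 with the slide as a fixed term) and the near-identical C4b lower by 1.71, so their signals are uncertain between the copies. Hc, complement C5, was higher by 0.91. Chemokines gave 3 higher and 6 lower of 28, but 8 higher and 2 lower without B6 replicate 1.

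The list of B and plasma cell genes did not separate the strains. Of its 9 members tested, 2 were higher, 0 lower and 7 not called, and the median was -0.22, or 0.23 without B6 replicate 1. The list means overlapped, at -1.56, -2.93 and -2.74 in B6 and -2.12, -2.42 and -2.05 in C3H. One of the 2 was Jchain, which joins secreted immunoglobulin and stood at 1.50, -0.40 and 0.67 in B6 and at 3.25, 2.51 and 3.02 in C3H, a difference of 2.34 (SE 0.45, adjusted p = 0.000490) and 2.79 without B6 replicate 1. The other was Mzb1, a chaperone of immunoglobulin assembly, higher by 1.21. With the slide as a fixed term 0 of the list were called. Probes that the files describe as immunoglobulin were then counted, a set chosen after its values were seen and given with no test. In the heavy chain region of chromosome 12, 27 of 42 were higher and 0 lower, with a median difference of 1.96 after vehicle, 0.02 at 2 h and 2.26 at 24 h. In the kappa chain region of chromosome 6, 23 of 39 were higher and 0 lower, with medians of 1.97, 0.63 and 2.22. The other genes in the heavy chain region had a median of 0.20, with 13 higher and 7 lower of 38. Array means of the heavy chain probes were -4.03, -5.62 and -4.41 in B6 and -2.46, -3.29 and -2.79 in C3H, and the 3 F1 arrays were at -3.87, -3.62 and -4.02.

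In the list of eosinophil and mast cell genes, 5 of 12 were higher, 2 lower and 5 not called, with a median of 0.31. Tpsab1, a mast cell tryptase, stood at -6.27, -6.02 and -5.99 in B6 and at -2.36, -2.40 and -2.48 in C3H, a difference of 3.68 (SE 0.28, adjusted p = 1.38e-09). The mast cell proteases Tpsb2, Cpa3 and Mcpt4 were higher by 1.54, 1.04 and 0.97 and the eosinophil granule protein Prg2 by 0.88. Fcer1a, of the IgE receptor, was lower by 0.85 and Hdc, which makes histamine, by 0.67. Outside the list Prss34, another mast cell protease, named after its value was seen, was lower by 1.96. T cell genes gave 4 lower and 1 higher of 12, with Cd3d of the T cell receptor complex at -1.41. The 1 higher gene, Thy1, is also a stromal marker. Macrophage genes gave 2 lower of 15.

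**Figure D2:**
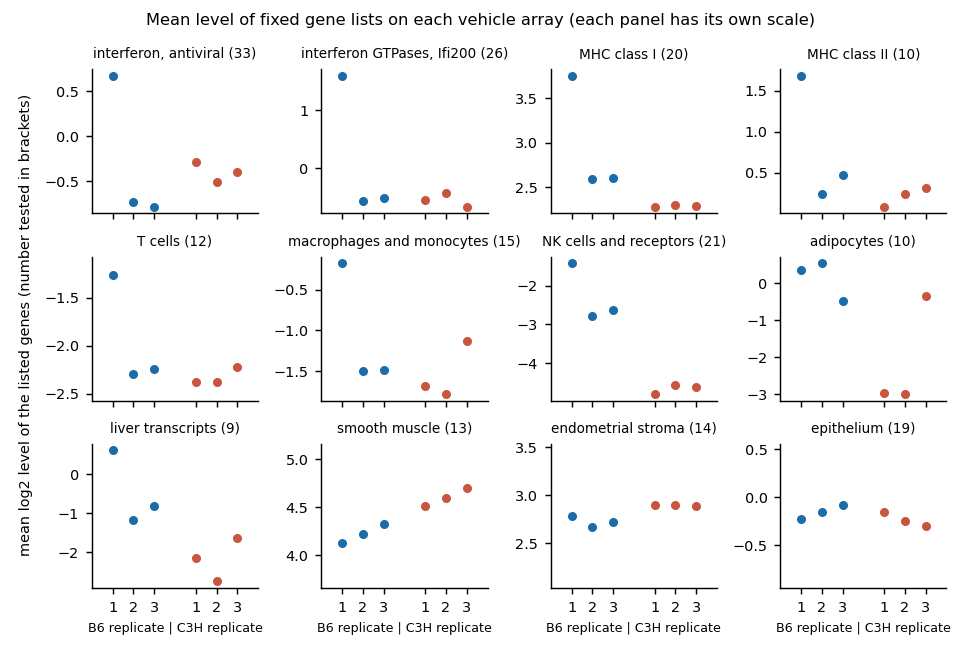
Mean level of 12 gene lists on each of the 6 vehicle arrays, on the log2 scale relative to the array's 75th percentile, with 1 point per array. NK genes separate the strains (-1.42 to -2.78 in B6, -4.79 to -4.55 in C3H), B6 replicate 1 is the highest array for the antiviral list at 0.67, and C3H replicate 3 is apart from the other C3H arrays for adipocyte genes at -0.33.

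Markers of uterine tissue layers were present in both strains. Smooth muscle genes gave 9 higher and 0 lower of 13, with a median of 0.33, and 5 higher without B6 replicate 1, B6 replicate 2 or C3H replicate 3, and 2 with the slide as a fixed term. Acta2, smooth muscle actin, was higher by 0.28, and the smooth muscle myosin Myh11, at 0.16, was not called. Stromal genes gave 8 higher and 1 lower of 14, and 4 higher without B6 replicate 1. Epithelial genes gave 2 higher and 4 lower of 19, with Epcam at 0.62 and Muc1 at -0.66, and endothelial genes 1 in each direction of 12. Of markers of neighbouring tissues, 2 were higher and 2 lower of 8 for oviduct and ciliated epithelium (50% called). For ovary 2 of 8 were higher (25%) and for mesothelium 1 of 7 was lower (14.3%), against 24.4% called over all genes. Skeletal muscle genes gave 5 higher and 2 lower of 9, with Ckm, muscle creatine kinase, at 2.10 and Myl1, a fast-fibre myosin light chain, at -3.43.

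Genes of fat and liver differed by large amounts between single arrays. The 10 adipocyte genes had list means of 0.37, 0.55 and -0.47 on the B6 arrays and of -2.95, -2.99 and -0.33 on the C3H arrays. C3H replicate 3 thus lay within the range of B6. Of the 10, 8 were lower in C3H with a median of -3.00, but 0 were called with the 6 arrays fitted alone, 0 without C3H replicate 1, 0 without C3H replicate 2, and 4 without B6 replicate 1. Adipoq, adiponectin, stood at 2.39, 2.70 and 1.47 in B6 and at -2.64, -3.01 and 1.19 in C3H. Cfd, a complement protease made by fat, showed the same arrays high and low, at 4.99, 5.20 and 3.69 against -0.01, 0.03 and 3.91, as did Cyp2e1 at 0.63, -0.04 and -0.61 against -2.94, -3.60 and -1.15.

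Of 9 liver transcripts 7 were lower, with list means of 0.61, -1.17 and -0.81 in B6 and -2.14, -2.74 and -1.64 in C3H. Leaving out B6 replicate 1, 5 were lower, and with the 6 arrays fitted alone 0. Alb, albumin, was lower by 2.09. The hepatic protease inhibitor genes of the Serpina1 and Serpina3 families moved with them: Serpina1b stood at -0.42, -1.93 and -1.50 in B6 and -3.26, -3.98 and -3.16 in C3H, and 7 of 25 serpins were lower and 1 higher. The part of fat and liver transcripts in the other results was not tested.

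Cytochrome P450 and conjugating enzymes gave 14 lower and 3 higher of 57, and 10 lower and 3 higher without B6 replicate 1. Cyp1a1, the main target of the aryl hydrocarbon receptor, was higher by 2.55, at -6.91, -7.18 and -7.54 in B6 and -4.86, -4.79 and -4.34 in C3H. Respiratory chain genes gave 3 higher and 2 lower of 32 (15.6% called, against 24.4% of all genes). Without B6 replicate 1 they gave 10 higher and 2 lower. Clock genes gave 2 higher and 4 lower of 19 (31.6% called).

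**Figure D3:**
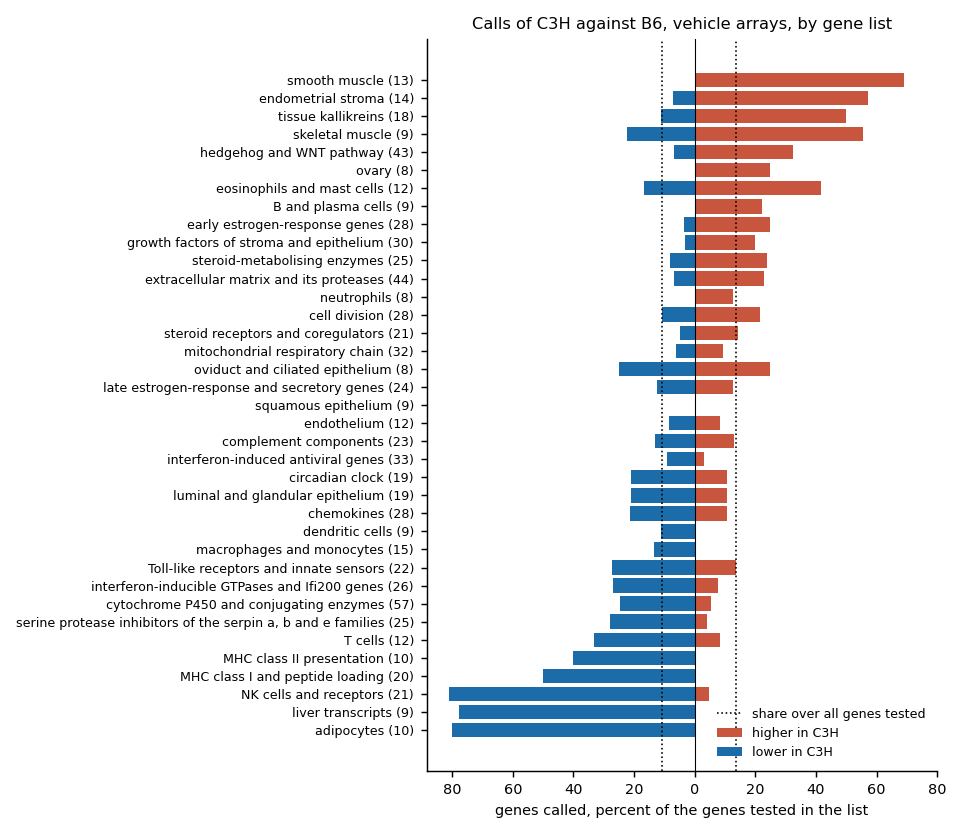
Percent of each gene list's tested members that were higher (right) or lower (left) in C3H at an adjusted p under 0.05, for lists of at least 8 tested genes. Dotted lines mark 13.5% and 10.9%, the shares over all 21861 genes; NK genes reach 17 of 21 lower and the kallikreins 9 of 18 higher.

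Apart from these lists, large differences were found in single genes of unrelated function. Ica1l, related to an islet cell autoantigen, was higher by 5.99, and Chga, chromogranin A of neuroendocrine granules, by 4.45, although C3H replicate 2 at -1.97 lay below the other C3H arrays at 0.41 and 0.21. Dusp16, a phosphatase of MAP kinases, was higher by 4.27 on its brightest probe and by 0.03 on the lowest of its 3 probes.

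Among genes lower in C3H, Prdm16, a zinc finger regulator of brown fat, stood at 1.34, 1.42 and 1.54 in B6 and at -3.34, -3.28 and -4.16 in C3H. The difference of -5.03 (SE 0.21, adjusted p = 1.23e-13) was free of overlap. Zfp874a and Zfp33b, of the zinc finger class, were lower by 5.97 and 4.34, Best1, a chloride channel, by 4.88 and the odorant receptor Olfr339 by 4.27. Several genes were above background in 1 strain only. Sult6b1, a sulfotransferase, was at least 26.3-fold higher in C3H and Dmp1, a mineralised matrix protein, at least 9.90-fold. In the other direction, Zfp939 was at least 13.6-fold lower, the channel-like Tmc5 at least 9.11-fold, the oocyte protein Ooep at least 8.79-fold and the lens galectin-like Grifin at least 7.72-fold.

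**Figure D4:**
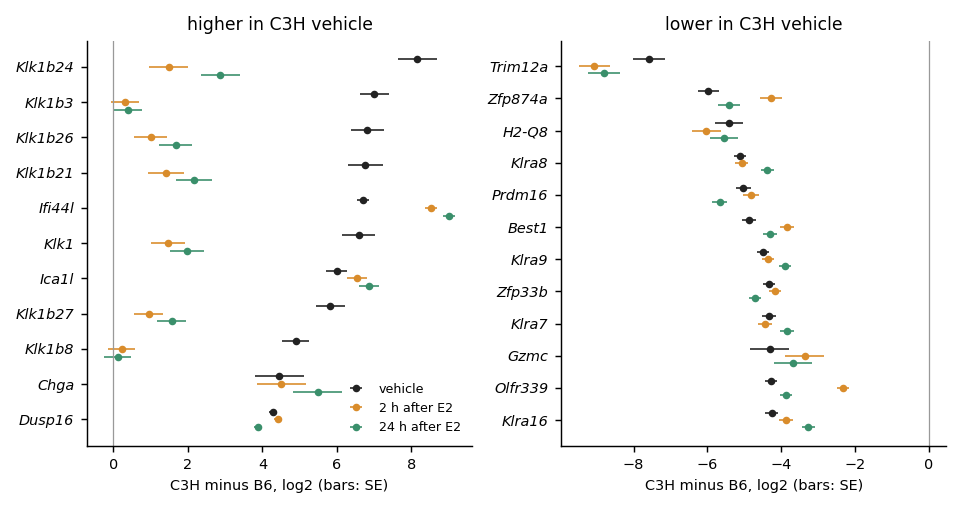
C3H minus B6 log2 difference with its SE for 11 of the highest and the 12 lowest named genes, after vehicle and at 2 h and 24 h after E2. The kallikreins fall from 4.90 to 8.15 after vehicle to between 0.12 and 2.88 after E2, whereas Ifi44l, Trim12a and the Klra genes stay far from 0 at every stage.

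Genes with more than 1 usable probe show how far the differences were a property of the gene. Of 130 such genes called 2-fold or more higher, 104 (80%) had every probe on the same side and 55 (42.3%) had every probe at 2-fold or more. For 183 such genes lower in C3H the counts were 142 (77.6%) and 85 (46.4%). The mouse reference is of B6 origin and no C3H sequence was used here, so unequal binding of the probes at strain variants was not tested.

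The differences were unevenly placed along the genome. Over 472 windows of 5 Mb with at least 10 tested genes, the median share of genes called at 2-fold was 5.41%, with 89 windows at none and 46 over 15%. The highest share was in the heavy chain window on chromosome 12, with 35 of 80 genes (43.8%), 33 of them higher in C3H. Next came chromosome 6 from 130 to 135 Mb (mm7), with 15 of 36 (41.7%), which holds the Klra genes together with Dusp16 and Lrp6. A chromosome 4 window with 13 of 45 (28.9%) holds the major urinary protein genes Mup1, Mup3 and Mup5 and the orosomucoids Orm1 and Orm2. Of the 13 genes, 11 were lower in C3H, and these liver products, at -1.86 for Mup1 to -2.12 for Orm1, were lower together with the liver transcripts above, of which 0 were called with the 6 arrays fitted alone.

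The E2 arrays share no sample with the vehicle arrays and gave the strain difference a further reading. It is not an independent one, since each gene kept the same probe and the same estimate of spread in the shared limma fit. At 2 h, 6647 genes (30.4%) differed between C3H and B6, and at 24 h 8444 (38.6%). Of the 5339 vehicle calls, 3543 were also called on the same side at 2 h (66.4% of the vehicle list, 53.3% of the 2 h list) and 3046 at 24 h (57.1% and 36.1%), with 55 and 338 called on the opposite side. Without B6 replicate 1, 70.9% and 55.7% of the vehicle calls were shared. Of the 1506 vehicle calls of 2-fold or more, 1191 (79.1%) were shared at 2 h, 1118 (74.2%) at 24 h and 981 (65.1%) at both.

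Few genes were called for a change in their strain difference early after E2, and a gene not called may still have changed. The difference at 2 h departed from that after vehicle for 490 genes (2.24%), and at 24 h for 4160 (19%). Trim12a, H2-Q8, Prdm16, Ica1l and Dusp16 passed neither test, and their strain differences at 2 h were -9.07, -6.03, -4.82, 6.54 and 4.43. The C3H mean of Trim12a was -4.77 (SD 1.40) after vehicle and only -7.05 at 2 h, so the size of its difference at 2 h is uncertain. The F1 mean after vehicle lay between the parents for 610 of the 643 genes higher in C3H by 2-fold or more (94.9%) and for 712 of the 863 lower ones (82.5%).

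**Figure D5:**
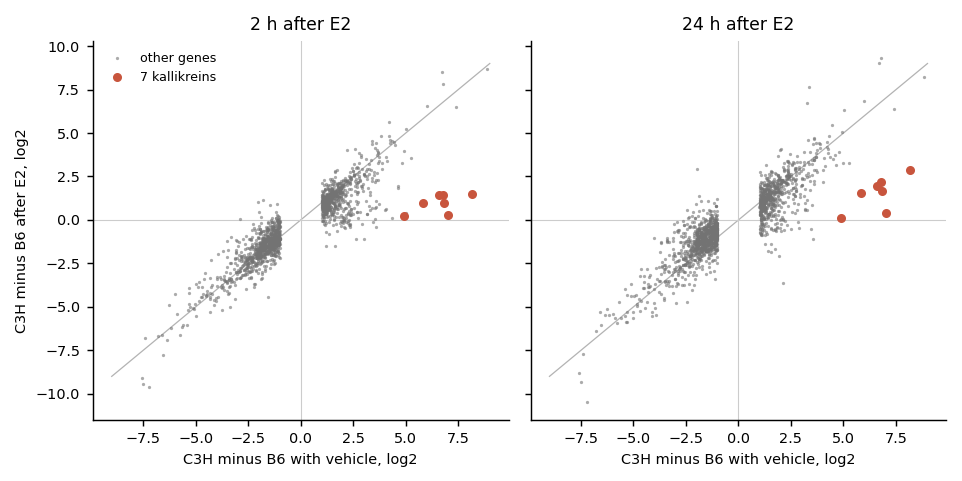
Strain difference (C3H minus B6, log2) after vehicle against that at 2 h and at 24 h after E2 for the 1506 genes called at 2-fold or more after vehicle, 1 point per gene; red points are 7 kallikreins. At 2 h 1191 of the genes were called on the same side. The red points lie far below the line of equality, such as Klk1b24 at 8.15 after vehicle and 1.48 at 2 h. Other genes do too, such as Hbegf at 4.04 and 0.66.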

How the data were processed

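RNA from uterine tissue was labelled with Cy3 and hybridised to 27 one-colour Agilent arrays with 60-base probes, 3 per group, from 500 ng of total RNA per sample. The deposited scanner files hold linear intensity per spot, made with Agilent Feature Extraction 9.5 per the submitters' processing notes (9.5.3.1 per the file headers). Per the file headers, the processed intensity is background-subtracted and detrended within an array, with low values replaced by surrogates, and the probes were annotated on mm7. The deposited value table holds the same intensity, with no scaling between arrays.

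From these intensities, the log2 of each processed signal was taken and the array's own 75th percentile over non-control spots subtracted. Control spots (1639) and outlier spots were left out, and probes were kept where every array of some group read them well above background (32901 of 41174). Each gene was read from its brightest probe, which gave 21861 genes. Probes were named through the RefSeq gene table by accession (23082) or symbol or synonym, and 8437 kept the files' names. One limma fit (R 4.3.3, limma 3.58.1) of 9 group means over the 27 arrays gave each contrast, with Benjamini-Hochberg adjustment over all genes. Named genes were the 12 highest and 12 lowest differences called with and without B6 vehicle replicate 1 whose strains did not overlap, whose probes lay on the same side and which were above background on all 6 arrays, the 6 largest bounds in each direction, up to 4 called members of each of 40 gene lists with any whose call changed without that array, and H2-Ea, Nnt, Esr1, Pgr and Tlr4. Other members named with a value were chosen after their values were seen. Some genes that the rule named are not reported here. The comparison and the lists were chosen with earlier results of these data known. On simulated data with 200 genes changed among 21861 in this comparison, the fit recovered 61.2% of changes of 0.5, 76.1% of changes of 1 and 92.4% of changes of 2 on the log2 scale. The simulated data had far fewer changed genes than the 5339 called here, and noise that was independent between arrays. Those rates are therefore no measure of sensitivity in the real data. The number of arrays limits the precision.

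Alternatives changed the arrays fitted, background correction, scaling, probe filter, choice of probe, array weights, slide and replicate block. Replicate numbers did not pair the arrays: deviations of same-numbered B6 and C3H vehicle arrays correlated at 0.09, 0.34 and -0.26.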

Additional observations from a re-analysis of the deposited data

Results flagged for a closer look

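For the genes named for the largest differences, the strain difference (C3H minus B6, log2) after E2 was tested against that after vehicle, in the limma fit with adjustment over all genes. The values below are the difference after E2 minus the difference after vehicle, for genes where this change passed. At 2 h the kallikreins changed most: Klk1b3 by -6.69, Klk1b24 by -6.67, Klk1b26 by -5.82, Klk1b21 by -5.35, Klk1 by -5.12, Klk1b27 by -4.87 and Klk1b8 by -4.67. At 24 h the same genes gave -6.62 for Klk1b3, -5.28 for Klk1b24, -5.15 for Klk1b26, -4.77 for Klk1b8, -4.61 for Klk1b21, -4.61 for Klk1 and -4.26 for Klk1b27.

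Ifi44l moved the other way, by 1.82 at 2 h and 2.30 at 24 h, so that its strain difference was larger after E2. Its B6 mean went from -6.30 after vehicle to -8.90 at 2 h and -7.85 at 24 h. Signals that low lie near the floor, so the size of its change is uncertain. Differences of genes lower in C3H became smaller at 2 h for Zfp874a (1.69), Best1 (1.03) and Olfr339 (1.94), and at 24 h for the NK receptor genes Klra8 (0.73) and Klra16 (0.98). For 4 genes not well above background in 1 strain after vehicle, the same test passed but the value depends on signals near the floor and measures no size. These were Ooep at 24 h (-1.10; mean level -3.80 after vehicle and -2.93 at 24 h in B6, -7.32 and -7.55 in C3H), Dmp1 at 2 h (-1.69) and 24 h (-1.97), Elmod1 at 24 h (-2.28) and Sult6b1 at 24 h (1.30).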

How the results depend on the processing

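Leaving out each vehicle array in turn gave 2221 to 2918 genes higher in C3H, 2027 to 2294 lower, 606 to 650 higher and 772 to 879 lower by 2-fold or more, and 2186 to 2412 shared with both E2 times. With the slide as a fixed term 880 genes were higher, 784 lower and 522 lower by 2-fold or more; of the 1506 calls of 2-fold or more, 46.8% were called again and 97.6% kept their sign, while the median SE rose from 0.12 to 0.26. That term could not be fitted for the strain contrasts after E2. Normexp background correction, with a median SE of 0.26, gave 399 higher, 367 lower, and 142 and 149 by 2-fold or more. Array weights, which gave B6 replicate 1 a weight of 0.22, called 5804 higher and 3951 lower. With the replicate number as a block, 2949 were higher, 2447 lower, and 638 and 873 by 2-fold or more, although the numbers do not pair the arrays; no pairing is implied. Of 233 named genes, 117 kept their direction and call with the slide term and 104 with normexp. Without B6 replicate 1, 139 did. That count follows in part from the selection, since genes were named for keeping or for changing their call without that array. The sign turned with the slide term for C4a (-0.82), Ccl6 (0.52), Hsd17b7 (-0.38), Clca3a1 (0.00034) and Srd5a1 (0.18). Over the fits leaving out 1 array, 6 genes turned without B6 replicate 1, and their ranges were -0.50 to 0.45 for Psmb8, -0.22 to 0.25 for Ifi35, -0.43 to 0.20 for Parp14, -1.55 to 1.15 for Cxcl10, -0.99 to 1.12 for Ccl7 and -1.92 to 1.30 for Cxcl9. It turned with array weights for Psmb8 (0.37) and Ifi35 (0.26), and with the mean of a gene's probes for H2-Aa (-1.78), Gvin1 (-0.82) and Cyp2d22 (-0.14). The cause was not tested. Genes not well above background have only a bound.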
